A study of Homo sapiens with 41 samples.

Results

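MYC encodes a basic helix-loop-helix transcription factor that binds DNA as a heterodimer with MAX and drives genes of growth, ribosome production and metabolism. Its neighbours PVT1, a long noncoding RNA gene that follows MYC on the chromosome, and POU5F1B, a processed retrocopy of the pluripotency factor gene POU5F1, share its gene-poor domain. These 3 genes, of 59098 RefSeq genes on chromosomes 1 to 22 and X, were chosen by name with earlier results of these data known, together with every CTCF and RAD21 peak from 500 kb before to 500 kb after MYC. All values used here, Pol II coverage and CTCF and RAD21 peaks, were used by that choice, so they are given as a description with no test. In hg38 MYC spans 127735434 to 127742951 of chromosome 8, PVT1 spans 127794524 to 128101256 and POU5F1B spans 127413447 to 127417224. The interval from 127235434 to 128242951, called the MYC window below, overlaps 18 RefSeq genes, of which 2 are protein-coding (MYC and POU5F1B) and 8 are long noncoding. Overlapping CTCF and RAD21 peaks merged into 40 sites in it, of 84044 in the genome.

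CTCF is a zinc finger protein that binds a long DNA motif and halts the cohesin ring, of which RAD21 is a subunit, as cohesin extrudes loops of chromatin. CTCF bound just before the MYC promoter is known to serve as a docking point for loops to distant enhancers, and the PVT1 promoter is known to compete with the MYC promoter for enhancers that lie within PVT1. RNA polymerase II (Pol II) at MYC is known to be regulated in part by pausing and release.

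The cells were T47D, an established luminal breast carcinoma line. All groups were kept for 48 h in medium without phenol red and with charcoal-treated serum, which lacks steroids, and then overnight without serum. Stress was 110 mM NaCl, which makes the medium hyperosmotic. CTCF was mapped without stress (3 libraries), after 7.5 min (2), 30 min (1) and 1 h of NaCl (3), and after 1 h of NaCl followed by 1 h back in isotonic medium, called recovery (1). RAD21 was mapped without stress, after 1 h of NaCl and in recovery with 3 libraries each, and Pol II without stress and after 1 h of NaCl with 2 each. For CTCF and for RAD21, 1 library in each of the states no stress, 1 h and recovery was titled with triptolide, an inhibitor of transcription initiation given at 500 nM from 2 h before. Titles and pre-treatment tags disagree on triptolide in 6 of the 12 libraries of the second submission, which holds every CTCF and RAD21 library numbered 3 here, the CTCF recovery library and all triptolide libraries. Titles are followed here, so every triptolide statement rests on them. Each of the 29 peak lists comes from 1 library, the other 12 of 41 samples are inputs without a list, and nothing in the labels says that replicates were separate cultures. Sequencing depth is unknown, because the lists hold no read totals. Listed peaks numbered 20678 to 59843 for CTCF and 3344 to 40969 for RAD21, and Pol II regions numbered 88046 to 216968.

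Fewer CTCF peaks stood in the MYC window after 1 h of NaCl than before. The 3 libraries without stress had 18, 18 and 8 CTCF peaks there, or 14.7 ± 5.77 (SD, n = 3). After 1 h of NaCl there were 6, 7 and 2, or 5 ± 2.65 (SD, n = 3), and the 2 groups did not overlap. The log2 ratio of the means was -1.55, compared with -0.64 for the whole lists. Windows of the same flank around 19939 protein-coding genes had a median log2 ratio of -0.63. The ratio at MYC stood at the 0.486 percentile of them, although such windows overlap each other and are not independent. The MYC window also started with few CTCF peaks, a mean of 14.7 against a median of 24.7 over gene windows (15.0 percentile). Ratios from few peaks vary more, and no percentile was computed with equal numbers of strongest peaks. In 37.5% of the gene windows every 1 h library had fewer CTCF peaks than every library without stress. Per 10000 peaks of the list, the MYC window held 3.01, 4.11 and 2.07 CTCF peaks without stress and 1.70, 2.05 and 0.908 at 1 h. On that scale too each 1 h value lay below each value without stress, the closest pair being 2.05 and 2.07. With the same number of strongest peaks taken from each library, so that whole lists no longer differed in length, the log2 ratio was -0.85. In a window of 1000 kb, with all peaks, it was -0.97.

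The early time points already had counts near those of 1 h. At 7.5 min the window had 7 and 6 CTCF peaks, and the single library at 30 min had 4. In recovery the single CTCF library had 7, against 8 without stress and 2 at 1 h in the same submission. Per 10000 listed peaks these were 1.51, 2.07 and 0.908, so on that scale recovery lay between the other states.

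RAD21 peaks in the window were fewer at 1 h too, in lists that were themselves much shorter. The 3 libraries without stress had 10, 7 and 13 RAD21 peaks in the window, or 10 ± 3 (SD, n = 3). At 1 h of NaCl they had 1, 4 and 2, or 2.33 ± 1.53 (SD, n = 3), again with no overlap. The log2 ratio was -2.10, against -1.57 for the whole lists and a median of -1.52 over gene windows, which placed the MYC window at the 21.0 percentile of 18861 windows. Another 1017 windows had no RAD21 peak left at 1 h and thus no ratio, and counted as lower they put it at the 25.04 percentile. With the same number of strongest peaks taken from each library, so that whole lists no longer differed in length, the log2 ratio was -1.32. Every 1 h library had fewer RAD21 peaks than every library without stress in 78.9% of 19878 gene windows. Recovery libraries had 4, 9 and 5 RAD21 peaks, overlapping the range without stress. Per 10000 listed peaks the RAD21 values were 5.47, 5.09 and 5.21 without stress and 2.10, 5.10 and 3.02 at 1 h. Replicate 2 at 1 h thus lay within the unstressed range. In recovery they were 9.10, 4.41 and 7.70, from lists of 4397, 20400 and 6492 peaks, and none lay within the unstressed range.

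**Figure D1:**
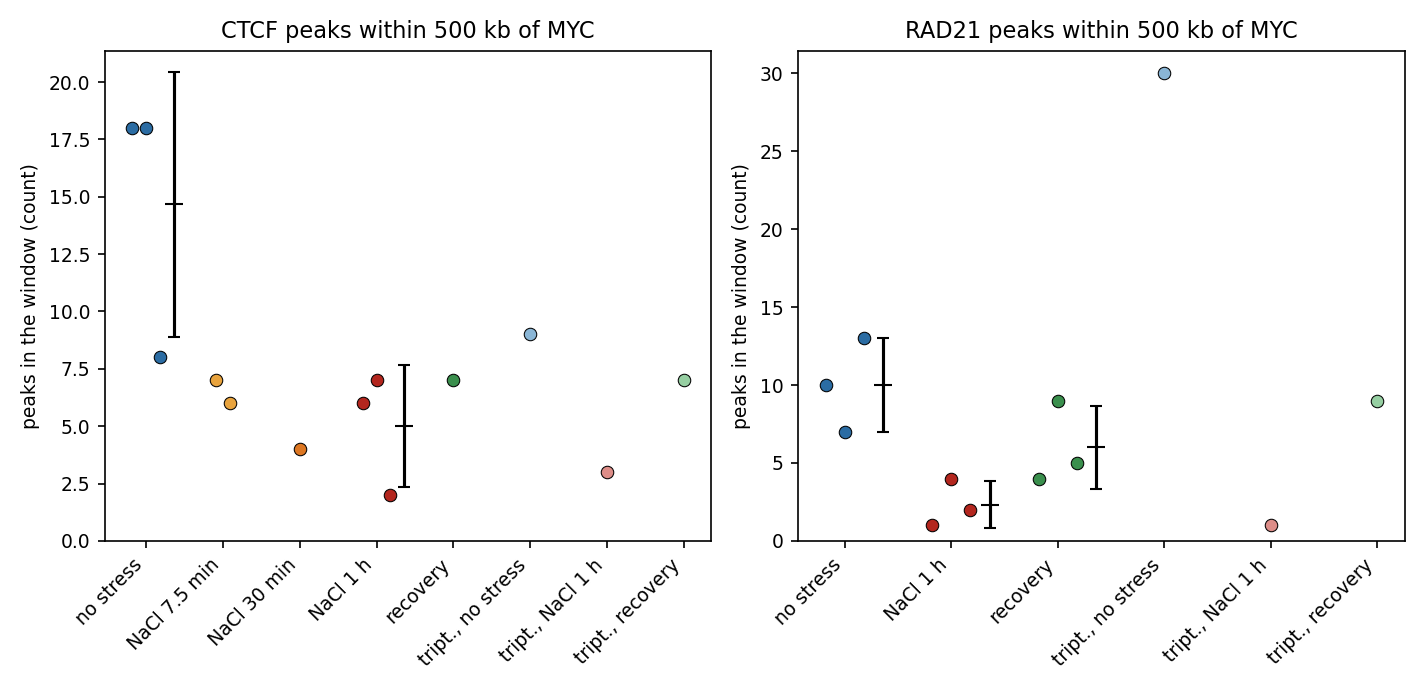
Number of CTCF (left) and RAD21 (right) peaks within 500 kb of MYC in each library, by condition (tript., triptolide by title). Points are single libraries, and bars give the mean and SD where a group has 3. CTCF has 18, 18 and 8 peaks without stress and 6, 7 and 2 after 1 h of NaCl, and RAD21 has 10, 7 and 13 and then 1, 4 and 2.

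Of the 40 sites, 15 had CTCF and RAD21 in at least 1 list each, 7 had CTCF alone and 18 had RAD21 alone. Only 1 site was in all 25 lists. A site shared by all 3 libraries without stress is called lost when no 1 h library had it and kept when all 3 had it. CTCF had 7 such shared sites in the window, of which 2 were lost, 2 kept and 3 present in some 1 h libraries. The lost count rests on weak peaks and single libraries, since it was 0 with fold enrichment of at least 5 (defined below), 0 with equal numbers of strongest peaks and 8 without unstressed replicate 3. The kept count was 5 without 1 h replicate 3. Over the genome 5.85% of 25596 shared CTCF sites were lost and 57.1% were kept. RAD21 had 5 shared sites, of which 2 were lost, 1 was kept and 2 were in some, against 32.4% lost and 34.5% kept of 10098 over the genome. The RAD21 lost count was 4 without replicate 2 of either group, and with equal numbers of strongest peaks 1 was lost and 0 kept. Nothing is read from counts this small against those shares. No site of the window was in all 3 libraries at 1 h and in none without stress, for either protein, and over the genome 28 CTCF and 2 RAD21 sites were. Sites in some 1 h libraries and in no unstressed one of the same protein were 1 for CTCF, described below, and for RAD21 a single peak 282 kb before MYC in replicate 3.

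**Figure D2:**
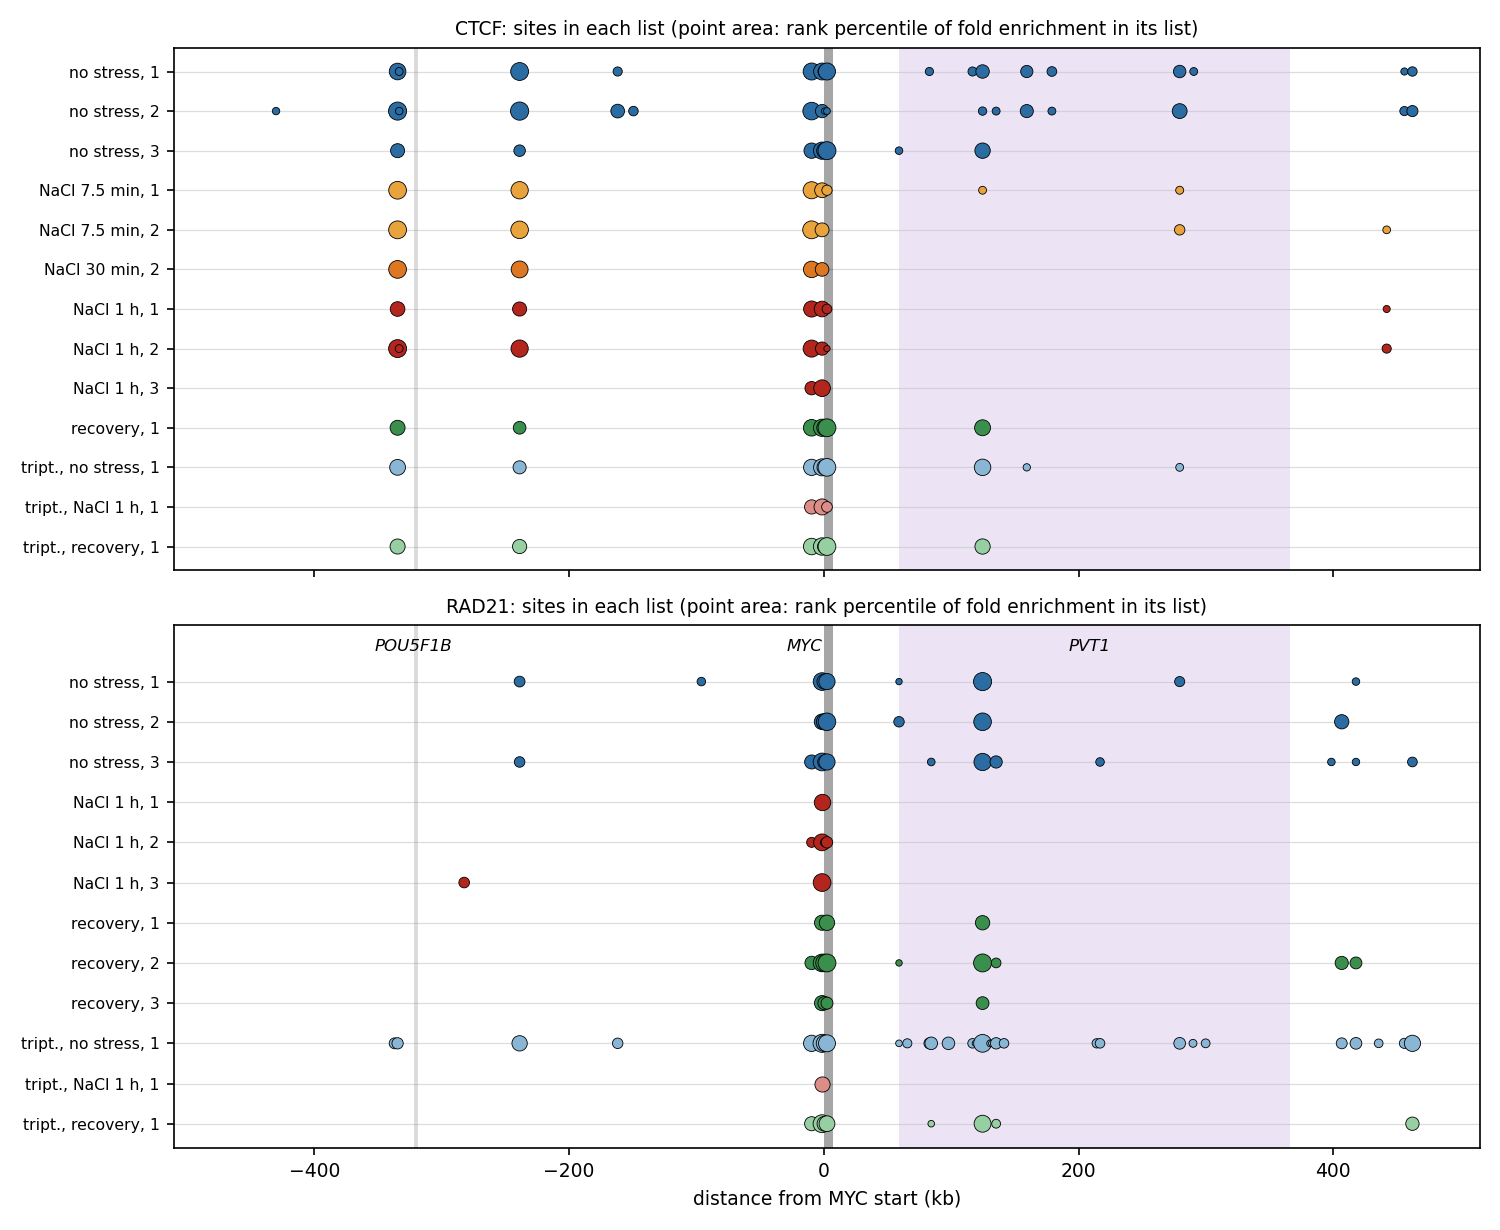
CTCF sites (top) and RAD21 sites (bottom) across the MYC window, one row per library, labelled by condition and replicate number (tript., triptolide by title), against distance from the MYC start in kb. A point is a site in that list and its area grows with the rank percentile of its fold enrichment, and shaded bands are POU5F1B, MYC and PVT1. Points next to MYC are present in every row, whereas the PVT1 band is empty in the 1 h rows of both proteins.

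The site that persisted throughout lay 1.33 kb before the MYC start (127733784 to 127734415), where it overlaps the MYC-side end of the long noncoding RNA gene CASC11. Both proteins were listed there in all 13 CTCF and all 12 RAD21 lists. Of 9328 shared CTCF sites that all 3 unstressed RAD21 libraries held, 18.1% were in all 25 lists. The median summit of CTCF stood 1328 bp before the MYC start, with 30 bp between its outermost libraries, and that of RAD21 stood 1286.5 bp before it, 41.5 bp nearer to MYC. Fold enrichment, the authors' ratio of a peak's signal to the caller's background, was 29.0, 10.5 and 15.3 for CTCF without stress. It was 22.5, 10.1 and 10.5 at 1 h. Each 1 h value lay below that of the same replicate number, while the means, 18.3 ± 9.59 and 14.4 ± 7.02 (SD, n = 3 each), differed by less than the spread between replicates and the groups overlapped. RAD21 fold enrichment at this site was 19.3, 9.81 and 18.0 without stress (15.7 ± 5.16, SD, n = 3) and 9.47, 12.4 and 12.0 at 1 h (11.3 ± 1.58, SD, n = 3). Those ranges overlapped too, with replicates 1 and 3 lower at 1 h and replicate 2 higher.

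Rank within a fixed set of sites compares the same sites in every list. The set itself is still limited by the shortest lists and holds only sites that persisted at 1 h. Among 1748 RAD21 sites present in all 12 RAD21 lists, the site stood at the 41.7, 10.9 and 54.2 percentiles of fold enrichment without stress and at the 57.8, 40.8 and 77.5 percentiles at 1 h, higher in each same-numbered replicate. In recovery it was at 44.8, 38.6 and 38.7. Among 12162 sites of all 13 CTCF lists the same site was at 47.6, 33.2 and 67.4 without stress and at 32.2, 24.3 and 67.6 at 1 h. The unstressed and 1 h percentiles overlapped for both proteins.

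**Figure D3:**
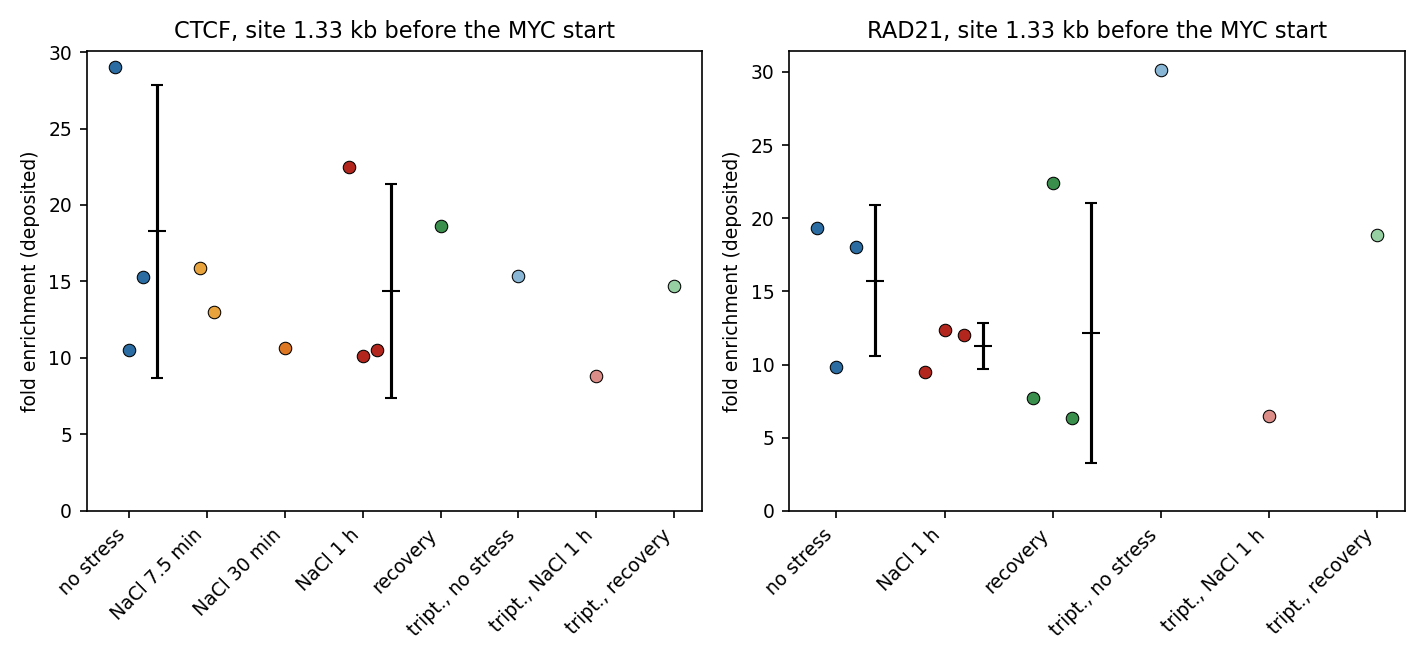
Deposited fold enrichment of CTCF (left) and RAD21 (right) at the site 1.33 kb before the MYC start, by condition (tript., triptolide by title). Points are single libraries and bars give the mean and SD where a group has 3. The site is present in every list, and its values at 1 h (10.1 to 22.5 for CTCF, 9.47 to 12.4 for RAD21) overlap those without stress.

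A second site 9.51 kb before MYC, within CASC11, was in all 13 CTCF lists, as were 47.5% of shared CTCF sites. CTCF fold enrichment there was 29.9, 28.4 and 8.68 without stress, 25.1 and 32.4 at 7.5 min, 19.1 at 30 min and 24.3, 24.9 and 5.44 at 1 h. Each 1 h value lay below that of the same replicate number, but the groups overlapped, with means of 22.3 ± 11.8 and 18.2 ± 11.1 (SD, n = 3 each). The values of replicate 3 were the lowest of both groups. RAD21 was listed there in 5 of 12 lists, only 1 of them an unstressed library without triptolide.

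Inside MYC, fewer 1 h libraries listed the sites than did unstressed ones. At 0.83 kb after the MYC start (127736015 to 127736509) CTCF was lost when all peaks were counted, and not with the stricter settings above, under which it is no longer shared by the unstressed libraries. Its fold enrichment was 12.5, 3.21 and 9.49 without stress (8.39 ± 4.73, SD, n = 3), and no CTCF peak was listed there at 7.5 min, 30 min or 1 h. The site was back in the recovery library at 10.8, close to the 9.49 of the unstressed library of the same submission. Both lost sites of the window were in the CTCF recovery library, as were 92.5% of the 1498 lost sites of the genome. The kept site 1.33 kb before the start and this lost site are neighbours under 5 kb apart, and 7.80% of 2654 such pairs of shared CTCF sites had 1 lost and 1 kept member. RAD21 at the same place had fold enrichments of 10.5, 11.3 and 7.95 without stress (9.92 ± 1.74, SD, n = 3). At 1 h only replicate 2 had a RAD21 peak there, at 3.99, and in recovery all 3 did, at 3.78, 20.9 and 5.43.

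The site 2.47 kb after the MYC start (127737563 to 127738240) had high CTCF values in 2 unstressed libraries and a low one in the other, 30.0, 3.76 and 23.2. CTCF was listed there at 6.24 in 1 library at 7.5 min and was missing from the other and from the 30 min library. At 1 h it was 6.53 and 3.24 in replicates 1 and 2 and not listed in replicate 3, which left each 1 h value below its own replicate. Recovery returned it to 25.2. RAD21 there was 12.8, 16.7 and 11.7 without stress, was listed only in replicate 2 at 1 h, at 5.98, and stood at 7.87, 25.2 and 5.01 in recovery. A weaker RAD21 peak 3.28 kb after the start, at 3.74, 3.13 and 2.71 without stress, was in no 1 h list. CTCF and RAD21 median summits within MYC lay 37.5 bp apart at the first of these sites and 33 bp apart at the second.

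Toward POU5F1B the window held 2 strong CTCF sites and little cohesin. No site lay within POU5F1B itself. The nearest strong one, 335 kb before MYC within CASC8 and CCAT2, long noncoding RNA genes of the cancer-risk region that also holds POU5F1B, had CTCF in 11 of 13 lists. Its fold enrichment was 27.5, 34.7 and 6.75 without stress and 18.4 and 35.2 at 1 h in replicates 1 and 2, whereas replicate 3 at 1 h did not list it. The site 239 kb before MYC, in no gene, followed the same libraries, with 37.6, 37.6 and 4.75 without stress, 16.6 and 26.6 at 1 h and none in replicate 3. Both sites were also missing from the triptolide library at 1 h, and both libraries are of the second submission, where the unstressed values were lowest. RAD21 was listed at the first of them in 1 list, the unstressed library titled with triptolide, at 5.18. At the second it was in 3 lists, at 6.49 and 5.58 without stress and at 11.2 in that triptolide library.

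PVT1, the longest gene of the window, had 7, 5 and 2 CTCF peaks and 3, 2 and 4 RAD21 peaks in the unstressed libraries and none of either protein in any 1 h library. Of 3296 genes of at least 100 kb with a CTCF peak in every unstressed library, 2.55% had none in any 1 h library, and of 1901 with RAD21 peaks in every unstressed library 28.6% had none. Pooled over all lists PVT1 held 20 of the 40 sites, of which 11 were in an unstressed library of either protein without triptolide and the other 9 were seen in the unstressed RAD21 library titled with triptolide. The site 125 kb after the MYC start (127859634 to 127860584) was the only one in PVT1 shared by all unstressed libraries of both proteins. Its CTCF fold enrichment was 13.4, 4.97 and 8.76 without stress (9.04 ± 4.21, SD, n = 3), 4.20 in 1 of the 2 libraries at 7.5 min, and 11.9 in recovery. Its RAD21 fold enrichment was 25.2, 17.0 and 15.2 without stress (19.2 ± 5.31, SD, n = 3), which ranked at the 86.7 percentile or higher of each list, and it was listed in no 1 h library. In recovery RAD21 was back in all 3 libraries at 7.20, 26.5 and 5.30. Only 10.2% of the 3271 lost RAD21 sites of the genome were in all 3 recovery libraries. Of the 2 in the MYC window this was the one in all 3. Recovery replicates 1 and 3 had short lists, of 4397 and 6492 peaks.

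At the start of PVT1 (59.1 kb after the MYC start) RAD21 was listed in 2 of the 3 unstressed libraries, at 3.36 and 5.05, in no 1 h library and in 1 recovery library, at 3.08. CTCF was listed there only in unstressed replicate 3, at 2.98. The site 279 kb after MYC, also in PVT1, had CTCF at 10.3 and 14.6 in unstressed replicates 1 and 2 and at 4.32 and 6.95 in the 2 libraries at 7.5 min, and at no later time. Replicate 3 did not list it, so it does not count as shared or lost. In all, 7 CTCF sites of the window were in unstressed replicates 1 and 2 but not 3, and 6 of these were in no 1 h library. The share of such sites absent at 1 h over the genome was not computed. The genome shares given above are for sites in all 3 unstressed libraries, so nothing is read from this count. The only CTCF site outside every unstressed library lay 442 kb after MYC in LOC124902020, with 4.65 in 1 library at 7.5 min and 3.97 and 5.12 in 2 libraries at 1 h.

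Many RAD21 peaks of the window had no CTCF peak of the same state and submission under them. Without stress 6 of 10, 4 of 7 and 6 of 13 lay at one, while of all RAD21 peaks in those lists 93.8, 88.2 and 76.9% did. At 1 h 1 of 1, 3 of 4 and 1 of 2 did, against 99.1, 91.4 and 90.9% over the lists, and the difference was not tested.

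The unstressed library titled with triptolide had the most RAD21 peaks in the window, 30, compared with 13 in the unstressed library of the same submission. That list was also longer, with 40969 peaks against 24931, and per 10000 peaks the window held 7.32 and 5.21. It held 14 of the 16 RAD21 sites seen in any unstressed library and 16 more, none of which was in another RAD21 list. Of those 16, 11 lay in PVT1 and 11 had no CTCF peak in any list. They were weak, with fold enrichments of 1.75 to 6.21 and a median at the 17.8 percentile of their list. PVT1 spans 306733 bp of the 1.01 Mb window, and no genome share of such added peaks was computed. Nothing is therefore read from these counts. Of all 30 peaks of that library in the window, 8 lay at a CTCF peak of the same state, treatment and submission, against 73.4% over its list. After 1 h of NaCl with triptolide only 1 RAD21 peak was listed, the site 1.33 kb before MYC at 6.47, in a list of 3344 peaks. In recovery with triptolide there were 9, from 22967 peaks. The libraries of the same submission without triptolide had 2 at 1 h and 5 in recovery, from 6630 and 6492 peaks. Per 10000 listed peaks the window held 2.99 at 1 h and 3.92 in recovery with triptolide, and 3.02 and 7.70 without it. CTCF with triptolide had 9 peaks without stress, 3 at 1 h and 7 in recovery, next to 8, 2 and 7 without it. With 1 library per state these differences have no replicate check.

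Pol II regions covered most of PVT1 before stress and little of it after. The share of PVT1 covered was 80.1 and 90.2% without stress and 0 and 22.1% after 1 h of NaCl. Both 1 h libraries thus lay below both unstressed ones, as they did for 14.9% of 18177 long noncoding RNA genes. Of those genes 55.2 and 57.7% were listed at 0 in the unstressed libraries and could not be lower. The 0 of 1 h replicate 1 lies in a stretch of 1191 kb in which that list holds no region at all, and whether the list is complete there is not known. Coverage before stress came mainly from 1 very wide region in each library, 214 kb (127793174 to 128006871) and 201 kb (127793148 to 127993851) long, the 17th and 20th widest of their lists. Both began shortly before the PVT1 start. With PVT1 cut into 4 equal stretches, the first and second from the start were covered completely in both unstressed libraries and the last by 29.6 and 69.1%. In replicate 2 at 1 h the 4 stretches were covered by 11.0, 2.79, 15.0 and 59.7%, so what was listed stood mostly toward the far end. Genes of at least 100 kb had both 1 h libraries lower in 26.8% of 4338 cases. In 50 of these genes, PVT1 included, mean coverage was lower by at least the 74.1 percentage points found at PVT1. Of the 58 with at least the coverage of PVT1 in each unstressed library, itself among them, all 58 were lower, a set chosen for starting high.

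Other genes within PVT1 share those regions and are no further evidence. The long noncoding RNA gene LINC02912 and the microRNA genes MIR1204 and MIR1205 were covered by 100 and 100% without stress and listed at 0 in both 1 h libraries. MIR1207, toward the far end, was listed at 0 except in replicate 2 at 1 h, where it was covered completely.

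Pol II at MYC itself differed more between replicates than between conditions. MYC was covered by 0 and 100% without stress and by 0 and 78.5% at 1 h, so both replicate 1 libraries listed it at 0 and both replicate 2 libraries did not. Groups overlapped, and MYC counts neither among the 35.2% of 19974 protein-coding genes with both 1 h libraries lower nor among the 16.1% with both higher. The region over MYC in unstressed replicate 2 (127733581 to 127744108) had a fold enrichment of 1.12 and a -log10 q of 0.50, and the stronger of those in replicate 2 at 1 h had 1.36 and 0.12. Within replicate 2 the 10 kb before MYC were covered by 18.5% without stress and 15.4% at 1 h, and the 10 kb after it by 11.6 and 14.2%. In unstressed replicate 1 a stretch without any region, from 127510649 to 127758074, spanned MYC, and 1324 stretches of that length or longer stood in its list. At 1 h replicate 1 had no region from 127077442 to 128268672, which includes the whole window, and 33 stretches in its list were as long or longer.

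POU5F1B was listed at 0 in both unstressed libraries and in replicate 1 at 1 h, and was covered by 5.69% in replicate 2 at 1 h through 1 region of 215 bp with a -log10 q of 0. Its parent gene POU5F1 on chromosome 6 was listed at 0 in all 4 libraries. Whether a listing at 0 means that Pol II was absent cannot be told from the lists and was not tested. GAPDH, used by every cell, was covered by 100 and 100% without stress and listed at 0 in both 1 h libraries. ACTB was covered by 100% in all 4. The libraries at 1 h also differed from each other in the window as a whole, with 0 regions in replicate 1 and 77 in replicate 2, none of which had a -log10 q of 1.3 or more. Unstressed libraries had 18 and 26 regions, of which 1 and 9 reached 1.3. With regions under 1.3 left out, PVT1 was covered by 69.2 and 82.8% without stress and listed at 0 in both 1 h libraries, and MYC was listed at 0 in all 4.

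**Figure D4:**
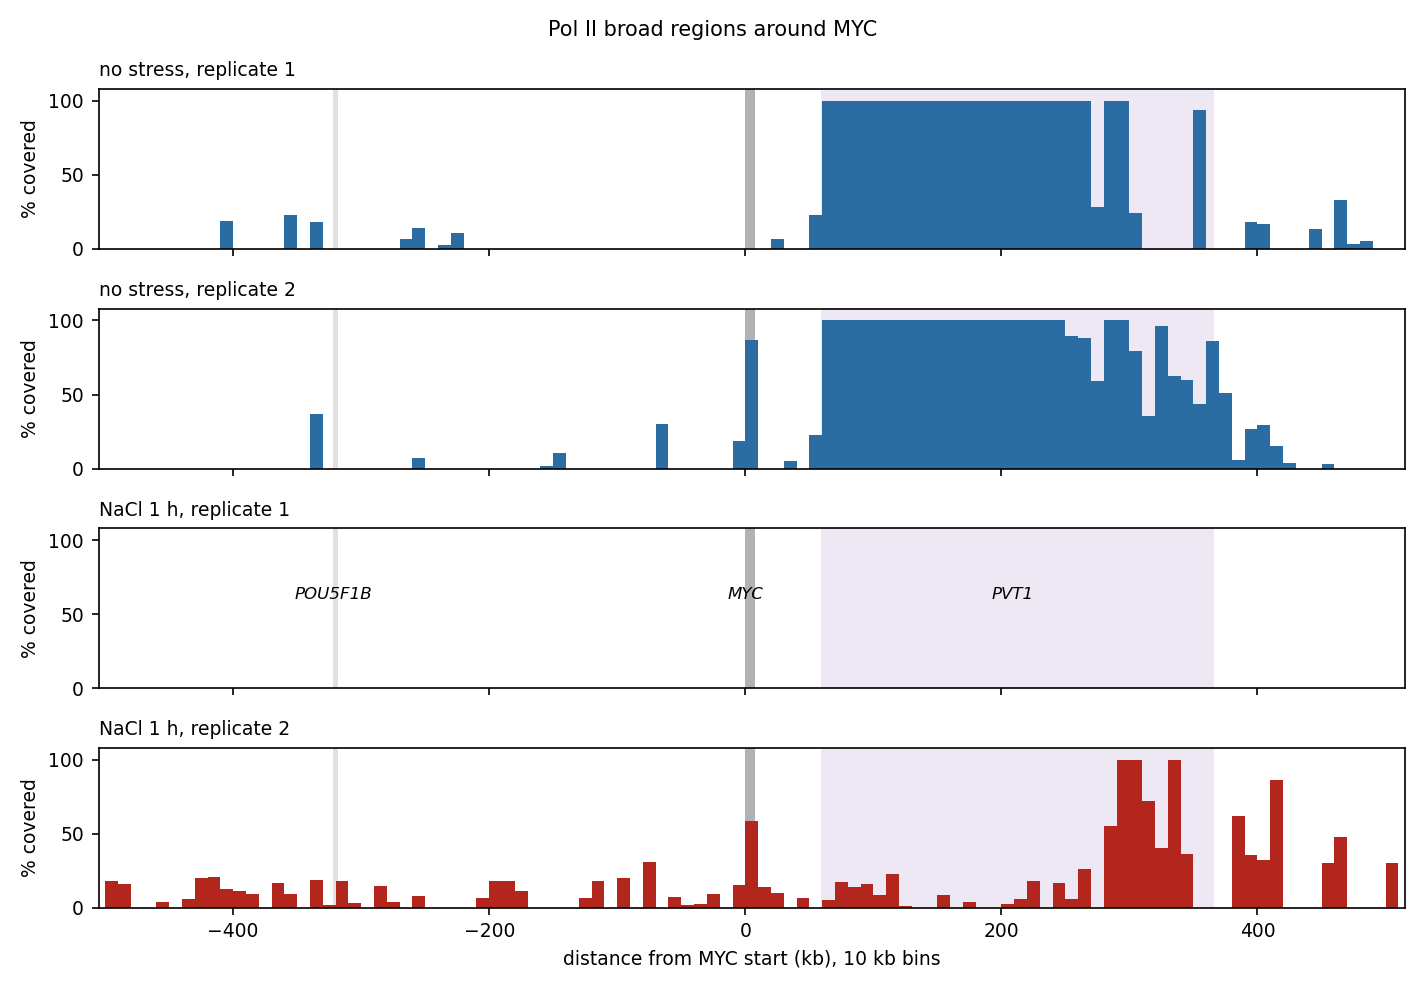
Share of each 10 kb bin of the MYC window covered by Pol II regions in the 4 libraries, against distance from the MYC start in kb, with POU5F1B, MYC and PVT1 shaded. Without stress 24 and 31 bins are covered by over 50%, all after the MYC start and mostly over PVT1, and at 1 h 0 and 8 are.

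The 5 genes whose coverage in the 4 libraries was most like that of MYC, by the largest difference in any library among 5181 protein-coding genes with 0.5 to 2 times its span, were RPL15, BTBD18, SULT1A3, PACSIN3 and SAPCD2. Their largest differences were 1.70, 2.16, 6.48, 7.67 and 11.9 percentage points. RPL15, a ribosomal protein gene, was covered by 0 and 100% without stress and 0 and 76.8% at 1 h. Their likeness to MYC is what the choice of them fixed. Only 13 of the genes compared were within 20 points of MYC in every library.

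The MYC network, taken here as the MYC paralogues, MAX, the MXD family and other MAX or MLX partners, had 7 genes of lower coverage at 1 h. Of 13, these 7 were lower in both 1 h libraries, 2 were higher and 4 overlapped, beside 35.2% lower and 16.1% higher of all protein-coding genes, and the median difference was -16.0 percentage points against -1.61 over all protein-coding genes, of which 25.1 and 24.1% were listed at 0 in the unstressed libraries and could not be lower. MAX, the obligate partner of MYC, was covered by 45.9 and 22.0% without stress and 17.2 and 8.42% at 1 h. MYCL, a MYC paralogue, was covered by 72.9 and 71.6% and then by 0 and 27.8%. MXD4, a MAX-binding repressor, was covered by 100 and 100% and then by 44.8 and 59.5%. The other lower ones were MYCN, MLXIPL, MLXIP and MGA. The 2 higher genes also encode MAX-binding antagonists of MYC. MXD1 was covered by 7.15 and 4.08% without stress and 28.5 and 12.8% at 1 h, and MXI1 by 1.05 and 0% and then 7.36 and 8.37%. MNT, MLX and MXD3 overlapped between groups, as MYC did.

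Of 18 genes widely used as MYC targets, 9 were lower in both 1 h libraries, 2 were higher and 7 overlapped, beside the same 35.2% lower and 16.1% higher of all protein-coding genes. The median difference was -27.2 points, against -1.61 over all protein-coding genes. Both lists were chosen by hand, mostly hold genes with Pol II regions before stress, and were not matched to other genes, so nothing particular to them is read from these counts. Among the lower ones, NOP58, a box C/D snoRNP core protein of rRNA modification, was covered by 85.9 and 70.5% without stress and 2.27 and 5.09% at 1 h. LDHA, lactate dehydrogenase A, was covered by 100 and 100% and then by 49.4 and 16.2%, and HSPD1, a mitochondrial chaperonin, by 100 and 100% and then by 38.9 and 30.6%. ODC1, the first enzyme of polyamine synthesis, was covered by 9.76 and 50.2% and listed at 0 in both 1 h libraries. The others lower were SRM, TFRC, EIF4E, FBL and NOP56. TERT, the catalytic subunit of telomerase, was listed at 0 in both unstressed libraries and covered by 65.8 and 46.0% at 1 h, and RCC1, the exchange factor for Ran, was covered by 47.8 and 59.0% and then by 100 and 97.4%. PTMA was covered completely in all 4 libraries, NCL in all but replicate 2 at 1 h, where it was listed at 0, and CCND2 was listed at 0 in all 4. Coverage counts bases under listed regions and measures neither the amount of Pol II nor transcription.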

How the data were processed

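The members and gene lists were chosen with earlier results of these data known. CTCF and RAD21 lists (narrow peaks) and Pol II lists (broad regions), 1 per library, were read as deposited on chromosomes 1 to 22 and X. The submitters' processing notes name cutadapt, Bowtie2 2.2.6, MACS2 and hg38, and for the first submission also DiffBind 2.4.6 and HOMER. What each did, with which threshold and against which control, is not given in the sources used here. For each peak the authors deposited a fold enrichment (a ratio), -log10 p and -log10 q values and an integer score, used only to describe, rank or filter peaks within a list. The column with the summit offset, another deposited value of the authors' lists, gave summit positions. Ranks from lists of different lengths show no change.

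Samples were grouped by title. The series text gives another NaCl concentration than the titles, and the tags of the 30 min CTCF and the Pol II replicate 2 libraries give another replicate number. No lists were identical (0 pairs). Peaks sharing 1 bp were merged into sites with Python 3.11.15, numpy 2.4.6 and pandas 2.3.3. Pol II coverage is the share of a RefSeq span (GRCh38.p14) under listed regions, and differences are 1 h minus no stress. The RefSeq table gives spans without strand or exons. Merging and coverage were tested on simulated lists. No test was run, since the choice of genes and peaks used the same values.

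The text names the 3 members, genes of the window, a MYC network and a MYC target list, POU5F1 and the 5 protein-coding genes most like MYC. GAPDH and ACTB were added after their values were seen. Alternatives were other filters, site definitions, window sizes, left-out libraries and the first submission alone.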

Additional observations from a re-analysis of the deposited data

How the results depend on the processing

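Few sites stand behind each count, so single libraries and filters move them. CTCF lost sites, 2 with all peaks, were 0 with fold enrichment of at least 5, 0 with the 22018 strongest peaks of each library and 8 in the first submission alone. CTCF kept sites, 2 with all peaks, were 5 in a window of 1000 kb and 5 in the first submission alone. RAD21 lost sites, 2 with all peaks, were 1 with the 4761 strongest peaks, where kept sites went from 1 to 0. In a window of 1000 kb RAD21 kept sites were 2. The RAD21 log2 ratio went from -2.10 to -1.32 with equal numbers of strongest peaks. The baselines of these values differ: whole lists had a ratio of -1.57 in the first setting and equal lengths in the second. The Pol II difference at POU5F1B, 2.85 points, was 0 with regions of -log10 q of at least 1.3.

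Leaving out 1 library at a time gave 2 to 8 CTCF lost sites (8 without unstressed replicate 3), 2 to 5 CTCF kept sites (5 without 1 h replicate 3), 2 to 4 RAD21 lost sites (4 without replicate 2 of either group) and 1 kept RAD21 site each time. It gave log2 ratios of -1.87 to -1.17 for CTCF and -2.74 to -1.74 for RAD21. Pol II differences ranged from -60.8 to 39.2 points at MYC (39.2 without unstressed replicate 2), from -85.1 to -63.0 at PVT1 and from 0 to 5.69 at POU5F1B.

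Pairing by replicate number (the replicate block) gave mean log2 ratios of -1.65 for CTCF and -2.28 for RAD21. The mean Pol II differences stay the same under this pairing by arithmetic, since every library has a partner, so they are no check. The cause of the shifts between settings was not tested. Of 51 alternatives other than left-out libraries, 41 stayed within the spread between replicates or, for counts, within 1.5 times, and 10 moved. The 41 include the Pol II values paired by replicate number, which could not move. A reversal of direction could be called only for the log2 ratios and the PVT1 difference, where there were 0. At MYC the replicates differed so widely that no setting and no left-out library counted as moving the difference. Its sign still changed among the left-out libraries.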
